A study of Arabidopsis thaliana with 6 samples.

Results

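The 10 genes described here encode classical arabinogalactan proteins (AGP1, AGP2, AGP4, AGP5, AGP9 and AGP10), arabinogalactan peptides (AGP12 and AGP16) and xylogens (XYP1 and XYP2). They were taken by locus identifier from a table of 33690 features, and all 10 passed the filter on low values (at least 1 FPKM in at least 3 libraries), as did 17906 features in all. RNA of mature stems was sequenced from 3 *hdt1* samples and 3 wild-type samples of Arabidopsis thaliana. *hdt1* plants carry a T-DNA insertion in HDT1 (AT3G44750), a plant-specific histone deacetylase, and the wild type is Columbia. The methods describe a pair of *hdt1* insertion lines, and which of them was sequenced is not in the labels. Stems of both genotypes were taken 35 days after flowering, untreated, from plants grown at 20 °C under 16 h of light and 8 h of dark according to the labels. The methods speak of stems without flowers and leaves and give other growth conditions. No source says whether samples came from separate plantings, so every p-value here reflects the spread among these samples, which may be technical.

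Arabinogalactan proteins are cell surface and wall proteins whose short backbone, rich in hydroxyproline, alanine, serine and threonine, carries large branched chains of galactose and arabinose. Classical members and the short arabinogalactan peptides are usually tethered to the plasma membrane by a glycosylphosphatidylinositol (GPI) anchor. Xylogens join such glycosylated stretches to a lipid transfer domain, and the first one studied, from Zinnia cell cultures, induces neighbouring cells to become tracheary elements. In Arabidopsis stems, arabinogalactan proteins are abundant in vascular tissue and at the surface of cells that build secondary walls.

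Expression is given as FPKM (fragments scaled by transcript length and by all mapped fragments), 1 value per gene and library. The columns are numbered 1, 2 and 4 in each genotype and could be tied to a genotype but not to a single sample. Library 1 stood apart from libraries 2 and 4 in both genotypes. Across the 17906 genes, log2 values of libraries 2 and 4 correlated at 0.995 in *hdt1* and at 0.995 in the wild type, against 0.870 to 0.872 between library 1 and the other libraries of *hdt1* and 0.897 and 0.90 in the wild type. Between genotypes, library 1 of *hdt1* and library 1 of the wild type correlated at 0.977, above the value of either with its own genotype. Libraries 2 and 4 correlated at 0.901 to 0.906 between genotypes. The mapped totals recovered from the values ranged from 40505052 to 45230842, so depth differed at most 1.12 times. HDT1 itself was at 4.97, 19.8 and 20.5 FPKM in *hdt1* libraries 1, 2 and 4, against 53.3, 65.3 and 56.9 FPKM in the wild type (log2 fold change -2.10 ± 0.51 SE, adjusted p = 0.269 by limma, a linear model with moderated variances fitted to all genes, and two-sided exact permutation p = 0.1). HDT1 was thus lower in every *hdt1* library, and 0.1 is the smallest p that 3 libraries against 3 allow.

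The 8 xylem markers, which include the secondary wall cellulose synthases CESA4, CESA7 and CESA8, were above 0 in all 6 libraries. Their summed level was 184 to 194 FPKM in *hdt1*, against 69.3, 31.1 and 30.9 FPKM in wild-type libraries 1, 2 and 4. XCP1 was under 1 FPKM in wild-type libraries 1, 2 and 4 (0.908, 0.0712 and 0.0953 FPKM). IRX9 was under 1 FPKM in wild-type libraries 2 and 4 (0.86 and 0.307 FPKM). For 7 of the 8 no wild-type library reached any *hdt1* library, against 8.5% of all 17906 genes. CESA4, CESA7, IRX9, LAC4 and XCP2 of this list are among the genes that the study chose from these libraries. The 4 phloem markers summed to 220 to 226 FPKM in *hdt1*, against 157, 123 and 127 FPKM in wild-type libraries 1, 2 and 4. Seed storage and oil body genes (CRA1, OLEO1, SESA3 and SESA5) summed to at most 0.146 FPKM in *hdt1* libraries, against 0 FPKM in wild-type library 1 and 135 and 136 FPKM in wild-type libraries 2 and 4. CRA1, SESA3 and SESA5 were listed at 0 in all *hdt1* libraries and in wild-type library 1. Pollen markers, among them AGP6 and AGP11, summed to 2.92 to 14.7 FPKM in *hdt1*, against 7.51 FPKM in wild-type library 1 and 61.0 and 66.9 FPKM in wild-type libraries 2 and 4. The 4 floral organ markers did not exceed a sum of 1.80 FPKM in any library. Epidermal markers summed to 46.8 to 181 FPKM in *hdt1* and to 80.7 to 203 FPKM in the wild type, with library 1 the highest in each. Most of this sum in library 1 was KCS6 (168 FPKM in *hdt1* and 184 FPKM in the wild type). ATML1 was also highest in library 1 of both genotypes, and CER1 in the wild type only. CER1 was lowest in *hdt1* library 1 (7.93 FPKM), and PDF1 was highest in wild-type libraries 2 and 4 (5.92 and 5.33 FPKM). Photosynthesis markers summed to 3310 to 6437 FPKM in *hdt1* and to 4318 to 7576 FPKM in the wild type, again with library 1 the highest. In bulk stems, fewer cells of a type and less RNA per cell cannot be told apart. The part of these tissues in the results below was not tested.

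All 10 genes had a positive log2 fold change of *hdt1* over the wild type, and none passed the adjusted test. Their median was 1.55 on the log2(FPKM + 1) scale, beside -0.085 over all genes tested. Calls at an adjusted p under 0.05 made up 0% of the 17906 genes, and 0.0799 was the lowest adjusted p by limma. Limma's voom fit to recovered reads called 0 genes as well. Taking unadjusted p-values under 0.05, AGP4, AGP9, AGP12, XYP1 and XYP2 were higher in *hdt1*, which is 5 of 10 genes, against 7.78% of all genes (1393 higher and 1068 lower). The higher share of such genes over the whole table was 56.6%, and 67.9% after median-ratio scaling. Every *hdt1* library lay above every wild-type library for AGP4, AGP5, AGP9, AGP12, XYP1 and XYP2, which is 6 of 10 genes, against 8.5% of all genes. The fold change was positive within library 1 and also within libraries 2 and 4 for 10 of 10 genes, against 22% of all genes. AGP4 and AGP12 are among the genes that the study chose for their difference in these same libraries, so their place in these counts is not independent evidence.

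**Figure D1:**
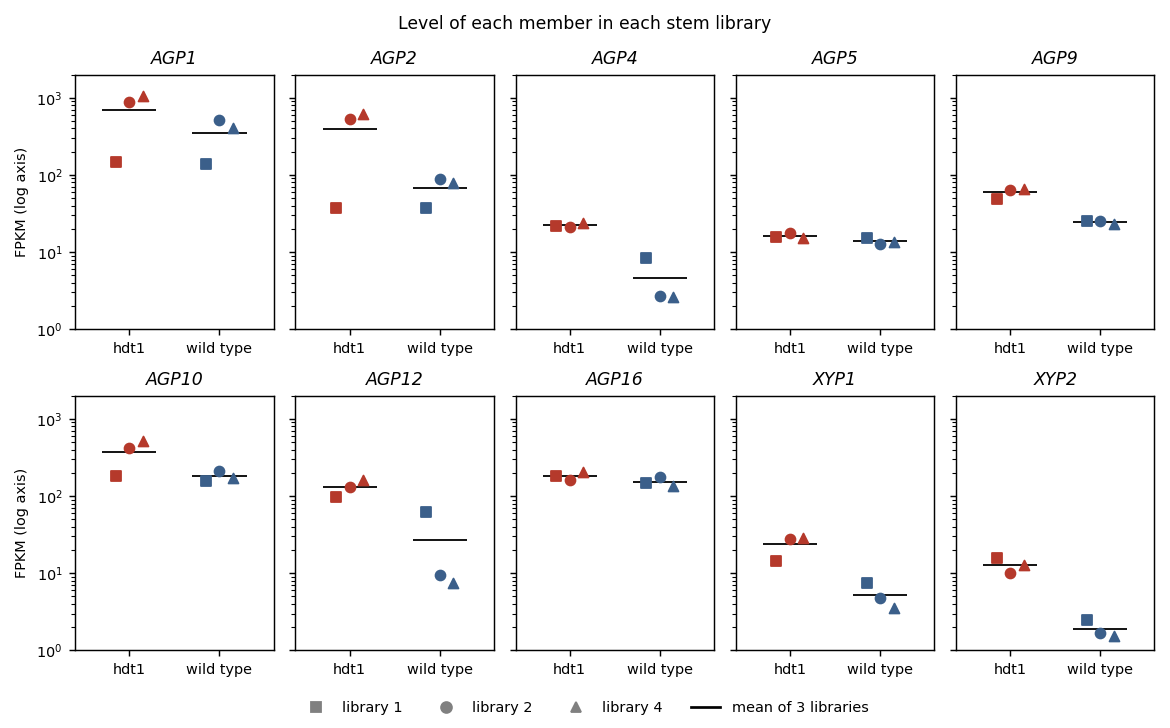
Level of each gene in FPKM (log axis) in the 3 *hdt1* libraries (left, red) and the 3 wild-type libraries (right, blue), with the mean as a line and the marker shape giving the library number. AGP4, AGP9, XYP1 and XYP2 are separated by genotype in all libraries, AGP12 is low in wild-type libraries 2 and 4 only, and AGP1, AGP2 and AGP10 are highest in *hdt1* libraries 2 and 4.

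Promoter windows are shown for 3 genes that stand for the 3 patterns described below. They are the 250 bases upstream of the annotated start in RefSeq TAIR10.1, written 5′ to 3′ on the strand of the gene, with matches to TATAAA, its reverse complement and the G-box CACGTG in capitals. AGP2 (chr2:9538964-9539213, minus strand) differed between library numbers and more so in *hdt1*, AGP12 (chr3:4408675-4408924, plus strand) was low in 2 wild-type libraries, and XYP2 (chr2:5776343-5776592, minus strand) differed by genotype in every library.
AGP2: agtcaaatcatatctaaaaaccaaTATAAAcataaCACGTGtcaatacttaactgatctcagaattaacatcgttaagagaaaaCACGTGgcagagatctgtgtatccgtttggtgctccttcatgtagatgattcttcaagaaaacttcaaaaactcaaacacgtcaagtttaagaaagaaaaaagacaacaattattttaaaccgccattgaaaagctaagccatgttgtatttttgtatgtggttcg
AGP12: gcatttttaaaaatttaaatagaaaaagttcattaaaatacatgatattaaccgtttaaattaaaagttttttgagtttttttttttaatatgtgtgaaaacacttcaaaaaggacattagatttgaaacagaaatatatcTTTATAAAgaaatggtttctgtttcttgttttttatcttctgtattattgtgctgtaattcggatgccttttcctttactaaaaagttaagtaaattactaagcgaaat
XYP2: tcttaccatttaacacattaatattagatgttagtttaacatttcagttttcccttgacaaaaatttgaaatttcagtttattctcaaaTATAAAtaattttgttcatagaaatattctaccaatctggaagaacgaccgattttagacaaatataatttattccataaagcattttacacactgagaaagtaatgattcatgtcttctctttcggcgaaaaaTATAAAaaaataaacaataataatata
The AC elements bound by MYB factors of lignin genes, AC-I (ACCTACC), AC-II (ACCAACC) and AC-III (ACCTAAC), were searched on both strands in the windows of all 10 genes. They were in 0 of the 10, and in 1.17%, 2.7% and 2.46% of the 27561 windows of this length. TERE, an element of tracheary element genes, was likewise in 0 of 10 windows and in 0.366% of all. The G-box, bound by bZIP and bHLH factors and added to the search after the windows had been seen, was in the AGP2 window alone of the 10, with first bases 215 and 166 bases before the start, and in 6.46% of all windows. TATAAA, added in the same way, was in the windows of 7 of the 10 (AGP2, AGP4, AGP5, AGP9, AGP10, AGP12 and XYP2) and in 47.3% of all. Matches to TATAAA on opposite strands overlap in the AGP12 and AGP10 windows, where 1 run of capitals holds both matches.

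The levels of the 10 genes spanned a wide range. FPKM is scaled by length, so levels can be set side by side, although the lengths used for the scaling (516 bases for AGP12 to 1150 bases for AGP9) were shorter than the merged RefSeq exons (760 bases for AGP5 to 1745 bases for AGP9). In *hdt1* the order of mean FPKM was AGP1 (693), AGP2 (392), AGP10 (374), AGP16 (183), AGP12 (130), AGP9 (59.4), XYP1 (23.7), AGP4 (22.2), AGP5 (16.2) and XYP2 (12.8). Only AGP12 and AGP9, AGP9 and XYP1, and AGP4 and AGP5 were neighbours in this order whose libraries did not overlap. In the wild type the order was AGP1 (352), AGP10 (181), AGP16 (154), AGP2 (67.7), AGP12 (26.6), AGP9 (24.4), AGP5 (13.8), XYP1 (5.22), AGP4 (4.56) and XYP2 (1.91). There AGP16 and AGP2, AGP9 and AGP5, AGP5 and XYP1, and AGP4 and XYP2 were neighbours whose libraries did not overlap. The wild-type mean of AGP1 exceeded that of 98.5% of the genes tested and that of XYP2 exceeded 8.63%. The summed FPKM of the 10 genes was 761, 2277 and 2685 in *hdt1* libraries 1, 2 and 4, against 603, 1051 and 839 in the wild type. The sum therefore differed most between library numbers in *hdt1*, and in *hdt1* libraries 2 and 4 most of it came from AGP1, AGP2 and AGP10.

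Among the classical arabinogalactan proteins, AGP9 and AGP4 were separated by genotype in every library. AGP9 (AT2G14890, chromosome 2, 6399405 to 6401149, plus strand) was at 48.7, 63.4 and 66.1 FPKM in *hdt1* libraries 1, 2 and 4, against 25.1, 25.0 and 23.1 FPKM in the wild type. Its lowest *hdt1* library lay well above its highest wild-type library, and the wild-type libraries hardly differed. The means were 59.4 ± 9.36 FPKM in *hdt1* and 24.4 ± 1.14 FPKM in the wild type (SD, n = 3 each), with a log2 fold change of 1.24 ± 0.17 (SE; limma p = 0.000291, adjusted p = 0.157; exact permutation p = 0.1). The fold change was 0.93 within library 1 and 1.39 within libraries 2 and 4.

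AGP4 (AT5G10430, chromosome 5, 3277488 to 3278461, minus strand), also called JAGGER and known for its part in preventing the attraction of a further pollen tube to a fertilized ovule, was nearly constant in the mutant. It was at 21.8, 21.4 and 23.5 FPKM in *hdt1* libraries 1, 2 and 4, against 8.36, 2.71 and 2.62 FPKM in the wild type. The *hdt1* libraries lay together, and it was the wild type in which library 1 stood above libraries 2 and 4. The means were 22.2 ± 1.11 FPKM in *hdt1* and 4.56 ± 3.29 FPKM in the wild type (SD, n = 3 each), and the log2 fold change was 2.21 ± 0.39 (SE; limma p = 0.00105, adjusted p = 0.217; exact permutation p = 0.1). It was 1.28 within library 1 and 2.67 within libraries 2 and 4. AGP4 overlaps the annotated gene AT5G10435 on the other strand over 585 bp, which has no row in the table, and the sources do not say whether reads were counted by strand. Reads of that gene and of AGP4 can therefore not be told apart.

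AGP1, AGP2 and AGP10, the most abundant classical members, formed another group. AGP2 (AT2G22470, chromosome 2, 9538127 to 9538963, minus strand) was at 37.6, 527 and 612 FPKM in *hdt1* libraries 1, 2 and 4, against 36.8, 88.8 and 77.5 FPKM in the wild type. Both genotypes were alike in library 1, and in libraries 2 and 4 both were higher, the mutant more so. The ratio of libraries 2 and 4 to library 1 was 15.1 in *hdt1* and 2.26 in the wild type. The log2 fold change between genotypes was 1.85 ± 1.09 (SE; limma p = 0.138, adjusted p = 0.482; exact permutation p = 0.3), with 0.03 within library 1 and 2.76 within libraries 2 and 4. Its means were 392 ± 310 FPKM in *hdt1* and 67.7 ± 27.3 FPKM in the wild type (SD, n = 3 each), so the spread in the mutant was nearly as large as its mean. The log2 fold change was 3.14 without *hdt1* library 1 (limma adjusted p = 0.0165) and 1.15 without *hdt1* library 4.

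AGP1 (AT5G64310, chromosome 5, 25721733 to 25722678, plus strand) was at 146, 891 and 1043 FPKM in *hdt1* libraries 1, 2 and 4, against 140, 513 and 402 FPKM in the wild type. Here too library 1 was alike in both genotypes and the lowest in each. The ratio of libraries 2 and 4 to library 1 was 6.63 in *hdt1* and 3.27 in the wild type. The genotypes overlapped, and the log2 fold change of 0.74 ± 0.87 was smaller than its SE (limma p = 0.425, adjusted p = 0.718; exact permutation p = 0.3). Within library 1 it was 0.06, and within libraries 2 and 4 it was 1.09. Single libraries decided its size, since it was 1.65 without *hdt1* library 1, 0.35 without *hdt1* library 2, 0.23 without *hdt1* library 4 and 0.18 without wild-type library 1.

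AGP10 (AT4G09030, chromosome 4, 5792137 to 5792966, plus strand) was at 180, 425 and 517 FPKM in *hdt1* libraries 1, 2 and 4, against 157, 214 and 172 FPKM in the wild type. *hdt1* library 1 lay among the wild-type libraries, and the other 2 *hdt1* libraries lay above them. The log2 fold change was 0.92 ± 0.41 (SE; limma p = 0.0651, adjusted p = 0.384; exact permutation p = 0.2), with 0.20 within library 1 and 1.29 within libraries 2 and 4. Over 337 bp AGP10 overlaps AT4G09035 on the other strand, which has no row in the table either.

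AGP5 (AT1G35230, chromosome 1, 12917070 to 12917829, plus strand) varied little. It was at 15.9, 17.6 and 15.1 FPKM in *hdt1* libraries 1, 2 and 4, against 15.1, 12.7 and 13.5 FPKM in the wild type. The lowest *hdt1* value and the highest wild-type value were the same to 3 digits, so the separation of the groups is slight. The log2 fold change was 0.22 ± 0.15 (SE; limma p = 0.194, adjusted p = 0.538; exact permutation p = 0.1), with 0.07 within library 1 and 0.29 within libraries 2 and 4.

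The arabinogalactan peptides have a backbone of only a few residues after processing. AGP12 (AT3G13520, chromosome 3, 4408925 to 4409734, plus strand) had the largest log2 fold change of the 10 genes. It was at 97.0, 131 and 163 FPKM in *hdt1* libraries 1, 2 and 4, against 62.8, 9.52 and 7.42 FPKM in the wild type. Every *hdt1* library was above every wild-type library, and wild-type libraries 2 and 4 stood far below wild-type library 1. The ratio of libraries 2 and 4 to library 1 was 1.51 in *hdt1* and 0.135 in the wild type. Means were 130 ± 32.9 FPKM in *hdt1* and 26.6 ± 31.4 FPKM in the wild type (SD, n = 3 each), with a log2 fold change of 2.85 ± 0.77 (SE; limma p = 0.00925, adjusted p = 0.287; exact permutation p = 0.1). The fold change was 0.62 within library 1 and 3.96 within libraries 2 and 4. Wild-type libraries 2 and 4 are the same libraries that held the seed transcripts and the highest pollen marker sums. The summed xylem, phloem, epidermal and photosynthesis markers were also lower in these libraries than in wild-type library 1.

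AGP16 (AT2G46330, chromosome 2, 19018264 to 19019364, minus strand) was at 183, 163 and 204 FPKM in *hdt1* libraries 1, 2 and 4, against 148, 179 and 136 FPKM in the wild type. The groups overlapped and no library stood apart. The log2 fold change was 0.25 ± 0.18 (SE; limma p = 0.222, adjusted p = 0.563; exact permutation p = 0.2), with 0.31 within library 1 and 0.22 within libraries 2 and 4. AGP16 overlaps AT2G46320 on the other strand over 228 bp (mean 12.6 FPKM) and shares a stretch of 116 bp at 89.7% identity with AGP20, so part of its reads may be split or shared.

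Both xylogens were separated by genotype in every library. XYP2 (AT2G13820, chromosome 2, 5774089 to 5776342, minus strand) was at 15.8, 10.2 and 12.6 FPKM in *hdt1* libraries 1, 2 and 4, against 2.46, 1.70 and 1.55 FPKM in the wild type. Library 1 was the highest in both genotypes, and the distance between genotypes was about the same in all libraries, 2.28 on the log2 scale within library 1 and 2.23 within libraries 2 and 4. The means were 12.8 ± 2.81 FPKM in *hdt1* and 1.91 ± 0.49 FPKM in the wild type (SD, n = 3 each), with a log2 fold change of 2.24 ± 0.23 (SE; limma p = 4.41e-05, adjusted p = 0.114; exact permutation p = 0.1). XYP2 was number 6 of all genes by p. Its wild-type values rest on 85, 60 and 51 recovered reads, the lowest of the 10 genes, against 579, 351 and 433 reads in *hdt1*. A stretch of 698 bp within its span is 97.1% identical to another place in the genome. Nearly the same stretch is 96.7% identical to a further place over 697 bp. Whether the 812 bases used for the scaling include this stretch is not known. They are fewer than the 1499 bases of all RefSeq exons merged.

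XYP1 (AT5G64080, chromosome 5, 25645209 to 25646845, minus strand), the other Arabidopsis xylogen whose loss together with XYP2 gives interrupted leaf veins, was at 14.4, 28 and 28.7 FPKM in *hdt1* libraries 1, 2 and 4, against 7.42, 4.75 and 3.49 FPKM in the wild type. Library 1 was the lowest in *hdt1* and the highest in the wild type, so the genotypes were closest there. The means were 23.7 ± 8.05 FPKM in *hdt1* and 5.22 ± 2.01 FPKM in the wild type (SD, n = 3 each), with a log2 fold change of 1.98 ± 0.35 (SE; limma p = 0.00116, adjusted p = 0.221; exact permutation p = 0.1). It was 0.87 within library 1 and 2.53 within libraries 2 and 4.

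**Figure D2:**
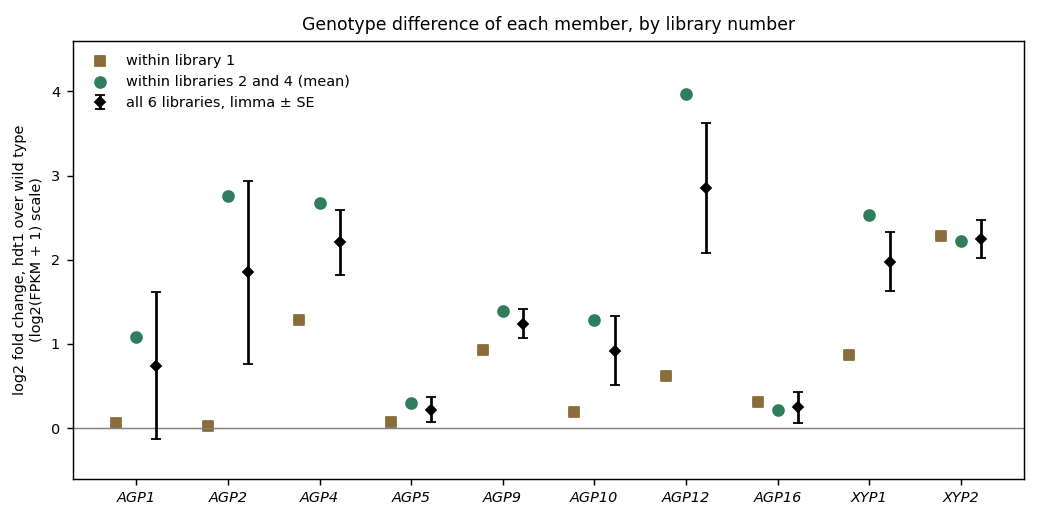
Log2 fold change of *hdt1* over the wild type on the log2(FPKM + 1) scale for each gene, within library 1 (squares), within libraries 2 and 4 (circles, mean) and over all 6 libraries (diamonds, limma estimate ± SE). XYP2 has 2.28 and 2.23 in the 2 sets of libraries, whereas AGP12 has 0.62 and 3.96 and AGP2 has 0.03 and 2.76.

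How the call depends on the library number was examined with a fit that has a term for library 1 against libraries 2 and 4. With this term AGP4 (adjusted p = 0.0331), AGP9 (0.0210), XYP1 (0.0447) and XYP2 (0.0111) were called higher in *hdt1* by limma, which is 4 of 10 genes, against 3.82% of all genes. AGP12 had an adjusted p of 0.0615 and AGP1, AGP2 and AGP10 had 0.0963, 0.0837 and 0.0741 in this fit. The term takes the difference between libraries to be the same in both genotypes, whereas it differed between them by over 1 log2 unit for AGP1, AGP2, AGP4, AGP10, AGP12 and XYP1. Library 1 also decided the calls when it was left out on one side. Without *hdt1* library 1, AGP2, AGP4, AGP9, AGP10, XYP1 and XYP2 were called higher (6 of 10 genes, against 6.82% of all), and without wild-type library 1, AGP4, AGP9, AGP12, XYP1 and XYP2 were called higher (5 of 10, against 3.35% of all). Libraries 2 and 4 alone, a comparison added after the split was known, called all but AGP16, which is 9 of 10 genes, against 27.4% of all genes. As these libraries are nearly alike within a genotype, this comparison measures little of the spread between samples. With the library number as a block, no gene was called, and 8 of 10 genes were higher in *hdt1* with unadjusted p-values under 0.05, against 12.4% of all genes. AGP4, AGP9, XYP1 and XYP2 were called in each of the fits above except the block. In each fit that called them, part or all of the spread comes from libraries 2 and 4, nearly alike within a genotype. These calls are therefore not independent of each other. With libraries 2 and 4 averaged, 0 genes were called. This fit has 2 values per genotype and takes the distance to library 1 as their spread, so it could hardly call any gene.

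The difference between library numbers was itself unequal among the 10 genes. In *hdt1*, AGP1, AGP2 and AGP10 were over 1 log2 unit higher in libraries 2 and 4 than in library 1 (2.72, 3.88 and 1.38), which is 3 of 10 genes, against 8.96% of all genes. In the wild type, AGP1 and AGP2 were over 1 log2 unit higher in libraries 2 and 4 (1.69 and 1.15), which is 2 of 10, against 7.3% of all genes. AGP4 and AGP12 were over 1 log2 unit lower there in the wild type (-1.35 and -2.76), again 2 of 10, against 9.88% of all genes. AGP5 and AGP16 differed by less than 0.2 log2 units between library numbers in both genotypes.

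**Figure D3:**
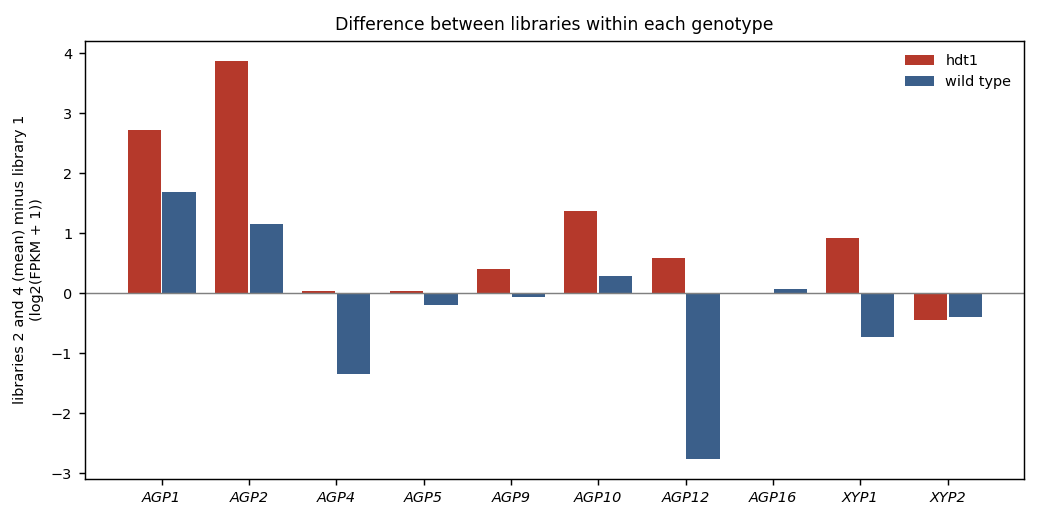
Difference between the mean of libraries 2 and 4 and library 1 in log2(FPKM + 1) for each gene, in *hdt1* (left bar of each pair, red) and in the wild type (right bar, blue). AGP2 reaches 3.88 in *hdt1* and 1.15 in the wild type, and AGP12 stands at 0.58 in *hdt1* and at -2.76 in the wild type.

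Genes whose pattern over the 6 libraries was most like that of 3 of the genes were listed by Pearson correlation of log2 values, as a description only, since any gene that separates the same libraries scores high. For AGP4 these were FLA11, a fasciclin-like arabinogalactan protein of secondary walls (r = 0.998), AT5G50150 (0.998) and UMAMIT12, of a transporter family (0.998), and 367 genes exceeded 0.95, these 3 included. FLA11, like AGP4, is among the genes that the study chose for their difference in these same libraries. It was at 66.9, 66.3 and 72.3 FPKM in *hdt1* libraries 1, 2 and 4, against 30.1, 10.8 and 12.2 FPKM in the wild type. For AGP12 they were RGS1, a regulator of G protein signalling (r of 1.0 after rounding), XEG113, an arabinosyltransferase of extensins (0.998), and SD1-29, a receptor-like kinase (0.998), with 503 genes over 0.95. The log2 fold changes of these 3 genes, 0.66, 0.49 and 0.91, were smaller than the 2.85 of AGP12. For XYP2 they were AT2G28315 (0.996), AT1G17147 (0.994) and AT3G44006 (0.993), with 105 genes over 0.95. Among the 10 genes, AGP2 and AGP10 (0.974), AGP4 and AGP12 (0.976) and AGP9 and XYP1 (0.975) were the pairs most alike.

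Other genes of the same protein class did not share one direction. Of 22 other arabinogalactan protein genes, 20 passed the filter and 0 were called by the adjusted test. Unadjusted p-values were under 0.05 for 5 genes higher in *hdt1* (AGP7, AGP18, AGP19, AGP21 and AGP22) and 2 lower (AGP6 and AGP24). Of all 17906 genes, 1393 (7.78%) were higher and 1068 lower at this limit. The median log2 fold change of the 20 genes was 0.61. AGP19, a lysine-rich member needed for normal shoot growth, was at 8.88, 12.2 and 12.8 FPKM in *hdt1* libraries 1, 2 and 4, against 4.47, 4.48 and 3.34 FPKM in the wild type (log2 fold change 1.26 ± 0.21 SE, limma adjusted p = 0.214). AGP7, AGP18 and AGP21, with log2 fold changes of 1.40, 2.46 and 2.49 (limma adjusted p = 0.269, 0.287 and 0.299), were likewise above the wild type in every *hdt1* library. In all, 6 of the 20 genes lay above in this way and 1 below, against 1522 above and 1950 below of all 17906 genes. AGP18, a lysine-rich member with a part in female gametophyte formation, had a log2 fold change of 0.22 within library 1 and 3.58 within libraries 2 and 4. AGP24 was lower in every *hdt1* library, at 105, 40.5 and 53.0 FPKM against 118, 163 and 128 FPKM in the wild type (log2 fold change -1.13, limma adjusted p = 0.31). AGP6 and AGP11, which act in pollen, were at 1.18 to 8.09 and 0.782 to 2.88 FPKM in *hdt1*. In wild-type libraries 2 and 4 they were at 27.4 and 25.4 FPKM and at 21.2 and 28.6 FPKM, and in wild-type library 1 at 5.24 and 0.999 FPKM. AGP23, AGP40 and AGP41 were likewise highest in wild-type libraries 2 and 4, the libraries with the seed transcripts and the highest pollen marker sums. AGP15, the most abundant of the class, was at 941, 1675 and 2006 FPKM in *hdt1* libraries 1, 2 and 4, against 1083, 852 and 669 FPKM in the wild type.

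**Figure D4:**
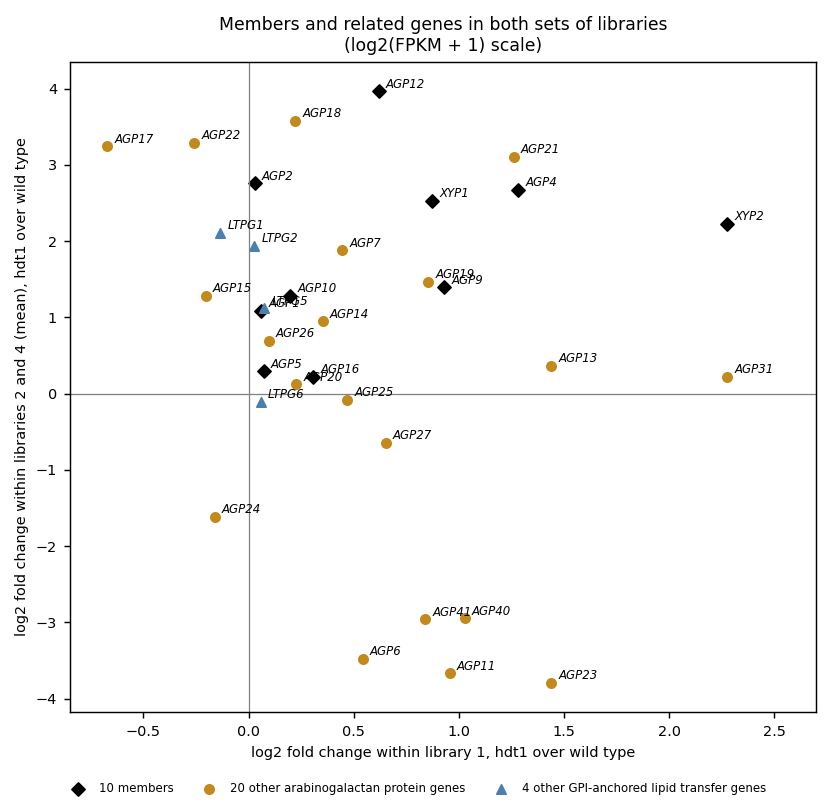
Log2 fold change of *hdt1* over the wild type within library 1 (horizontal axis) against that within libraries 2 and 4 (vertical axis, mean), both on the log2(FPKM + 1) scale, for the 10 genes (diamonds), 20 other arabinogalactan protein genes (circles) and 4 GPI-anchored lipid transfer genes (triangles). The 10 genes all lie right of and above 0, and AGP6, AGP11, AGP23, AGP40 and AGP41 lie at 0.54 to 1.44 on the horizontal axis and at -3.79 to -2.95 on the vertical axis.

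Other genes build the sugar chains of these proteins. Of 22 genes of arabinogalactan glycosylation, 19 passed the filter and 0 were called. Unadjusted p-values were under 0.05 for 2 of the 19 genes higher in *hdt1*, against 7.78% of all genes, and for 0 lower. The median log2 fold change of the 19 genes was 0.27. P4H5, a prolyl 4-hydroxylase that makes the hydroxyproline to which the chains are attached, was at 37.2, 61.8 and 64.5 FPKM in *hdt1* libraries 1, 2 and 4, against 39.5, 24 and 25.7 FPKM in the wild type (log2 fold change 0.85, limma adjusted p = 0.32). Its library 1 values were alike, and its groups overlapped. FUT4, which adds fucose to the chains, was at 50.3, 76.1 and 82.5 FPKM in *hdt1*, against 35.3, 48.4 and 43.6 FPKM in the wild type (log2 fold change 0.68, limma adjusted p = 0.32, and 0.036 with the term for library 1). The 8 hydroxyproline galactosyltransferase genes, which attach the first sugar, had a median log2 fold change of -0.054, and none had an unadjusted p under 0.05.

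Of 6 other genes of GPI-anchored lipid transfer proteins, which share with xylogens the lipid transfer domain, 4 passed the filter and 0 were called. LTPG1, which helps to bring wax lipids to the stem surface, was at 16.1, 37.3 and 46.5 FPKM in *hdt1* libraries 1, 2 and 4, against 17.7, 9.01 and 8.73 FPKM in the wild type (log2 fold change 1.36 ± 0.46 SE, limma adjusted p = 0.315). LTPG2 and LTPG5 had log2 fold changes of 1.30 and 0.77 (limma adjusted p = 0.315 and 0.306), and LTPG6 had -0.052. The unadjusted p-values of LTPG1, LTPG2 and LTPG5 were under 0.05, which is 3 of 4 genes, against 7.78% of all genes that were higher at this limit. In LTPG1, LTPG2 and LTPG5 library 1 differed by less than 0.2 log2 units between genotypes, unlike in the xylogens. The 4 genes of GPI anchor synthesis tested (PNT1, SETH1, SETH2 and APTG1) had log2 fold changes of -0.42 to -0.13, and none had an unadjusted p under 0.05.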

How the data were processed

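Stem RNA of 3 *hdt1* and 3 wild-type samples was sequenced, and the authors deposited FPKM values per gene and library. Bowtie2 2.2.3, TopHat2 2.0.12 and also HTSeq 0.6.1 appear in the submitters' processing notes. For the genome build and strand setting the sources used here give nothing. The methods call the unit RPKM. The series text says that samples had no replicates, whereas labels and methods give 3 per genotype.

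Genes reaching 1 FPKM in 3 or more libraries were kept, log2(FPKM + 1) was fitted by genotype with limma 3.58.1 (R 4.3.3, empirical Bayes with trend), and p-values were adjusted by the Benjamini-Hochberg method over 17906 genes. A gene is called at an adjusted p under 0.05. This scale understates the change of low genes. Exact two-sided permutation tests used FPKM values. Whole reads were recovered for 25297 of 25374 features above 0 (99.7%, relative tolerance 1e-09). The reads of 1165 genes were scaled by a common factor so that they gave a shared mapped total. They were tested with limma's voom as an alternative. The 10 genes had 51 to 31610 reads.

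Pairing by library number was checked through deviations from the genotype means. They correlated at 0.56 (number 1), 0.53 (number 2) and 0.46 (number 4), over the limit of 0.1 for pairing, and at 0.51 and 0.54 when 2 and 4 were crossed. What a number marks is not stated.

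The 10 genes, the lists and the tests were chosen with earlier results of these data known. Named are these genes, HDT1, up to 4 genes per list by p, list genes in groups of 5 or fewer, and the 3 genes most like AGP4, AGP12 and XYP2. AGP15, AGP23, AGP40, AGP41 and LTPG6 were named after their values were seen. Coordinates, promoter windows and overlaps are from RefSeq TAIR10.1. Python 3.11.15 with NumPy 2.4.6, pandas 2.3.3 and matplotlib 3.10.9 was used. Protein sequences were not analysed here.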

Additional observations from a re-analysis of the deposited data

How the results depend on the processing

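The log2 fold changes of the 10 genes were positive in all 17 alternatives. Some of these could not change the estimate, only its p-value. They are the block, the term for library 1, robust moderation and both changes of the filter. With a pseudocount of 0.1, without a filter, with a mean of at least 5 FPKM, with median-ratio or quantile scaling, with libraries 2 and 4 averaged, with robust moderation and with voom, as with the block, 0 genes were called. A term for library 1 called 684 genes higher and 451 lower in *hdt1*, 4 of the 10 genes among those higher. Libraries 2 and 4 alone, chosen after seeing the data, called 4905 higher and 6904 lower, 9 of the 10 among those higher. Leaving out 1 library gave 0 to 1222 genes called higher, 0 to 772 called lower and 0 to 6 of the 10 genes, and only *hdt1* library 1 (1222 higher, 772 lower) and wild-type library 1 (599 higher, 537 lower) gave any. The cause was not tested. The HDT1 log2 fold change was -2.10 with an adjusted p of 0.0394 with the term, -1.55 in libraries 2 and 4 alone (1.66e-06), and -2.41 to -1.49 when 1 library was left out, called without *hdt1* library 1 only (0.00834). The block by library number, with pairing by number, left 0 genes called, with adjusted p of 0.136 to 0.388 for the 10 genes, and changed no call, but it moved the count of genes with an unadjusted p under 0.05 to 2225 higher and 2251 lower, and to 8 of the 10. That count was also 8 with the term and without *hdt1* library 1, and 9 in libraries 2 and 4 alone. Of all 17906 genes, 2941 were higher and 3729 lower at this limit with the term. Without *hdt1* library 1 these were 2476 higher and 3215 lower, and in libraries 2 and 4 alone 5142 higher and 7266 lower. Without a filter, the median log2 fold change of the 6 lipid transfer genes was 0.43 in place of 1.04, since genes near 0 enter. Depth limits XYP2 in the wild type most, and 3 libraries per genotype with 1 standing apart limit all p-values.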
